A study of Mus musculus with 4 samples.

Results

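The comparison of wild type atria with wild type ventricles used 2 of the 4 arrays of the series. It is the difference, in log2 units, between the deposited value of each probe set on the array of wild type atria and on the array of wild type ventricles, so a positive value is higher in atria. The table held 21212 probe sets on each array. They gave 18781 named genes, of which 10034 reached, on the brighter of the 2 wild type arrays, the median of all values in the table, 5.71. This level is called the floor, and genes under it on both arrays were not compared. Both wild type groups carry Mef2a+/+, the intact gene of a MADS-box transcription factor, and each array held total RNA pooled in equal molar amounts from 7 mice at 2 months of age, of both sexes. The other 2 groups are atria and ventricles of Mef2a-/- mice of the same age, also 7 pooled per array, and are called knockout-labelled here. With 1 pooled array per group there was no replicate check, so no difference below was set against a spread between animals or arrays, no p-value is given, and every value describes these pools. In pooled tissue, fewer cells of a type and less RNA per cell cannot be told apart. The study's stated question for this pair was which transcripts are enriched in each chamber.

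The atria receive blood at low pressure, hold the pacemaker region in their wall and release natriuretic peptides into the blood. The ventricles pump against much higher pressure and depend on the oxidation of fatty acids in densely packed mitochondria. Muscle cells of both chambers share most sarcomere proteins but use different myosin light chains, connexins and ion channel subunits, which are set during development by T-box, COUP-TF and iroquois transcription factors. The wall of each chamber also holds fibroblasts, vessels and nerves between an outer epicardium and an inner endocardium.

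The wild type arrays were close in distribution, with medians of 5.72 in wild type atria and 5.69 in wild type ventricles and interquartile ranges of 3.21 and 3.18. The knockout-labelled arrays had medians of 5.75 and 5.66 and interquartile ranges of 2.97 and 3.19. The arrays of the series thus did not share a common distribution, and a later processing step or filter is possible. Over the 10034 genes above the floor, the median difference was −0.01 with a standard deviation across genes of 0.57, and 48.4% of differences were positive. Mef2a stood at 10.32 and 10.28 on the wild type atrial and ventricular arrays and at 10.41 and 10.34 on the knockout-labelled ones, so its signal does not check the genotype labels. The chamber labels were set beside marker lists. These lists were chosen with earlier results of these data known, so the counts are no independent check of the labels. Of 23 atrial identity genes above the floor 20 were past 2-fold in the atrial direction, and of 16 ventricular identity genes 8 were past 2-fold in ventricles and 0 in atria, so both arrays carried the markers of their labelled chamber.

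Genes that were higher in atria were more numerous and differed by more than those higher in ventricles. Past 2-fold were 390 genes in the atrial direction, 3.89% of the genes above the floor, and 222 in the ventricular direction, 2.21%, together 6.1%. At 4-fold the counts were 92 (0.917%) and 28 (0.279%), and at 8-fold 31 and 8. Of the genes higher in atria 13 passed 16-fold and 4 passed 64-fold, against 0 ventricular genes at either size. The bound of 2-fold fell between S100a11 at 1.00036 and Fn1, the fibronectin gene, at 0.999201 on the atrial side. On the ventricular side it fell between Tmod4 at −1.00219 and Dld at −0.998218, so a few genes of each group described below lie just inside or outside it. The dimmer array was below the floor for 161 of the 390 atrial genes and 61 of the 222 ventricular genes. For these the size of the difference rests on a value near background, which the summarising method compresses.

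**Figure D1:**
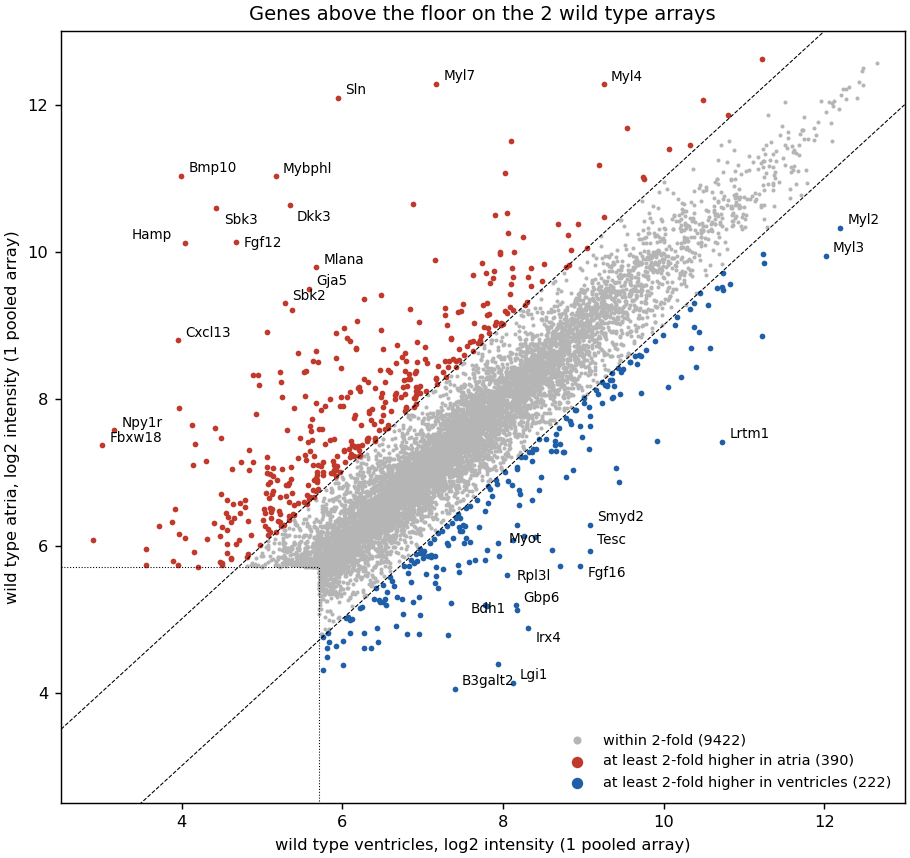
Each point is 1 of the 10034 named genes above the floor, placed by its log2 intensity on the array of wild type ventricles (x axis) and wild type atria (y axis), each 1 pooled array. Dashed lines mark a 2-fold difference and the dotted corner the floor at 5.71. The 390 genes at least 2-fold higher in atria (red) reach far above the upper line, with Bmp10, Sbk3 and Sln at the top left, while the 222 genes higher in ventricles (blue) stay closer to the lower line.

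The knockout-labelled pair, which shares no array with the wild type pair, gave a second reading of the same chambers under the other genotype label. Of its 10120 genes above the floor 350 (3.46%) passed 2-fold toward atria and 288 (2.85%) toward ventricles. The atrial lists shared 275 genes, 70.5% of the wild type list and 78.6% of the knockout-labelled list. The ventricular lists shared 158 genes, 71.2% of the wild type list and 54.9% of the knockout-labelled list. Of the 390 wild type atrial genes 388 had the same sign in the knockout-labelled pair, and of the 222 ventricular genes 220 had. Past 4-fold in wild type, 86 of 92 atrial and 24 of 28 ventricular genes were past 2-fold in the same direction there.

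The myosin light chains gave a paired contrast within 1 protein complex. Each myosin head binds a regulatory and an essential light chain, and the atrial and ventricular forms come from different genes. The atrial regulatory chain gene Myl7 stood at 12.28 in wild type atria and 7.17 in wild type ventricles, a 34.5-fold difference, and at 12.19 and 6.64 in the knockout-labelled chambers. The ventricular regulatory chain gene Myl2 stood at 10.33 in atria and 12.20 in ventricles, 3.66-fold higher in ventricles. Its signal was thus well above the floor in both chambers, whereas Myl7 had the wider gap. The essential chains had the same arrangement with smaller sizes. Myl4, the atrial form, read 12.28 in atria and 9.25 in ventricles (3.02), and Myl3, the ventricular and slow muscle form, read 9.94 and 12.02 (−2.08). In the knockout-labelled pair the 4 differences were 5.55 for Myl7, −1.90 for Myl2, 3.33 for Myl4 and −2.36 for Myl3, so for each gene both atrial arrays lay on the same side of both ventricular arrays. The upstream sequences of these 4 genes are shown because their products replace each other between the chambers. Bmp10, the secreted factor with the widest atrial difference, and Irx4, the homeobox gene with the widest ventricular difference among transcription factors, are shown beside them. Each is the 250 bases before the gene's annotated start in RefSeq (mouse build GRCm38.p6), read 5′ to 3′ on the gene's own strand. They lie at chr11:5898783-5899032 on the minus strand for Myl7, and on the plus strand at chr5:122092474-122092723 for Myl2, chr11:104550413-104550662 for Myl4, chr9:110763428-110763677 for Myl3, chr6:87428744-87428993 for Bmp10 and chr13:73260247-73260496 for Irx4. For Myl2, 2 starts are listed and the first of them was taken, without knowing which is used in heart. Capitals mark matches, on either strand, to the motifs searched: CArG (bound by serum response factor), MEF2, M-CAT with the letters CATTCC (bound by TEAD factors), GATA with the letters AGATAA (bound by GATA factors), T-box with the letters AGGTGTGA, ERR with the letters TCAAGGTCA (bound by estrogen-related receptors), the TATA box with the letters TATAAA, and the nuclear receptor motif AGGTCA.
Myl7: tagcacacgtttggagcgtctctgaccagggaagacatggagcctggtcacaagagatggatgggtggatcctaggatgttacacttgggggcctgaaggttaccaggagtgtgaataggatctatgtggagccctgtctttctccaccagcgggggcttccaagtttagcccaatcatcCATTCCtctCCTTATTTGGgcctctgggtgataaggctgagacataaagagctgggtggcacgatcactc
Myl2: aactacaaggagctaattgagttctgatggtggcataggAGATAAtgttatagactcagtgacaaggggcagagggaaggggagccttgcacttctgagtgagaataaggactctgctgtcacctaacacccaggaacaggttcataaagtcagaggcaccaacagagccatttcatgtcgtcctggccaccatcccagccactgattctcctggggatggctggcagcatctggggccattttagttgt
Myl4: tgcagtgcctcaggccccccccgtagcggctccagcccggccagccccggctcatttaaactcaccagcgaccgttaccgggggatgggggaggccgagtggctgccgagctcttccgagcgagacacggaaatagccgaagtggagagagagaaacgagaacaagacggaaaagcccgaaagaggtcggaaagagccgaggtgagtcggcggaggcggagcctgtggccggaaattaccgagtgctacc
Myl3: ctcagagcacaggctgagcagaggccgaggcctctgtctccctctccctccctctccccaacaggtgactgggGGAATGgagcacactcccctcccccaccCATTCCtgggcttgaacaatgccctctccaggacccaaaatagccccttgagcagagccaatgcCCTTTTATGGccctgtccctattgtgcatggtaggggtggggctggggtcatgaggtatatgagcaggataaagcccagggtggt
Bmp10: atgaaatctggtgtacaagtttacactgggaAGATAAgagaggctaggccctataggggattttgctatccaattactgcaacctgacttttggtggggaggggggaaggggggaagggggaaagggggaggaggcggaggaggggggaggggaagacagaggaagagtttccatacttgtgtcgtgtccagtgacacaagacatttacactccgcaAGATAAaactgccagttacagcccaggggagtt
Irx4: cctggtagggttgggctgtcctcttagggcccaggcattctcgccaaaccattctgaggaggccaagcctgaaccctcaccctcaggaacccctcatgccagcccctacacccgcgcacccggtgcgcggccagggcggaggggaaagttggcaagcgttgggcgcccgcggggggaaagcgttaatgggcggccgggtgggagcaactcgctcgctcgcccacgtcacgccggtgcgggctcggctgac
Myl7 holds 1 M-CAT and 1 CArG match side by side, and Myl3 holds 2 M-CAT matches, of which the first lies on the opposite strand, and 1 CArG match. Bmp10 holds 2 GATA matches and Myl2 holds 1, while Myl4 and Irx4 hold 0 of the motifs in this window. These matches are descriptions of letters only. Over whole sets of promoters, CArG matches were found in 2.84% of 282 promoters of genes higher in atria, 3.89% of 180 of genes higher in ventricles, 1.28% of 8129 of genes above the floor and 1.25% of all 15062. M-CAT matches were found in 13.8%, 13.9%, 10.6% and 11.3% of the same sets. GATA matches stood at 6.38%, 10%, 5.51% and 8.72%, MEF2 matches at 2.48%, 3.89%, 1.70% and 2.54%, and T-box matches at 1.42%, 0.556%, 0.664% and 1.0%. AGGTCA, which ERR matches contain, was present in 8.51% of atrial and 17.2% of ventricular promoters, against 10.1% above the floor and 12.1% of all. TATAAA was present in 11.3%, 12.2%, 6.59% and 11.5%.

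Outside the light chains, the atrial identity genes were led by secreted and regulatory proteins. Bmp10 encodes a ligand of the bone morphogenetic protein family made by heart muscle, and read 11.03 in wild type atria and 3.99 in ventricles, a 132-fold difference. The knockout-labelled chambers read 11.30 and 4.04. Sln encodes sarcolipin, a small inhibitor of the sarcoplasmic reticulum calcium pump, and read 12.09 and 5.95 (70.9-fold). Pln, which encodes phospholamban, the inhibitor of the same pump used throughout the heart, read 12.09 and 12.41, within 2-fold. Of these 2 pump inhibitors only Sln was past 2-fold between the wild type chambers. Hamp encodes hepcidin, the hormone that limits iron export from cells, and read 10.12 in atria and 4.05 in ventricles. Sbk3 and Sbk2, neighbouring genes for kinases with an SH3-binding domain, read 10.59 and 4.43, and 9.30 and 5.29. Mybphl, a relative of cardiac myosin-binding protein C, read 11.03 and 5.17 (58.0-fold). The ventricular values of Bmp10, Hamp, Sbk3, Sbk2 and Mybphl were below the floor, and that of Sln was just above it. Dkk3 is a secreted member of the Dickkopf family and stood at 10.64 and 5.34. Gja5 encodes connexin 40, the fast-conducting gap junction protein of atria and the ventricular conduction system, and stood at 9.50 and 5.59. Tbx5, a T-box factor, was at 10.52 and 8.05 (5.53-fold), and Nr2f2, the COUP-TF factor required for atrial identity in development, at 8.48 and 6.67.

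The hormone gene Nppa, which encodes atrial natriuretic peptide, showed only a modest difference on these arrays. It read 12.63 in atria and 11.23 in ventricles, or 2.64-fold, and 12.50 and 11.22 in the knockout-labelled chambers. Its value in wild type atria was the highest of all probe sets on that array, where array signal flattens, and the part of that in the size of the difference was not tested. Pam encodes the enzyme that amidates peptides and is abundant in atrial granules, and was higher in atria by 1.57. Of the identity list, Kcnk3 (0.42) and Meis1 (0.14) were within 2-fold, and Kcna5, a voltage-gated potassium channel gene, was at −1.04 with its atrial value of 5.03 below the floor. Nkx2-6 was below the floor on both arrays.

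The ventricular identity genes had a median of −1.05 over 16 members, against −0.01 for all genes above the floor. Irx4, the iroquois homeobox gene that marks ventricular muscle from early development, read 4.88 in atria and 8.31 in ventricles, a 10.8-fold difference. Kcnip2, the subunit that gives the fast transient outward potassium current its size, read 7.06 and 9.41 (5.11-fold). Fhl2, a LIM protein of the sarcomere, read 9.84 and 11.25, and Lbh, a transcription cofactor gene, 8.29 and 10.22. All 4 had the same direction in the knockout-labelled pair, at −3.79, −2.63, −1.70 and −1.47. Myh7, the slow myosin heavy chain of ventricles before birth, read 7.51 and 8.66 (−1.15) in wild type and −2.12 between the knockout-labelled chambers. Myh6, the fast heavy chain used by both adult mouse chambers, differed by −0.03. Hey2 (−0.97) lay just short of 2-fold, and Cited1 (0.55) was the only listed gene above the floor with a positive difference. Irx1 and Hand1 were below the floor in both wild type chambers.

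**Figure D2:**
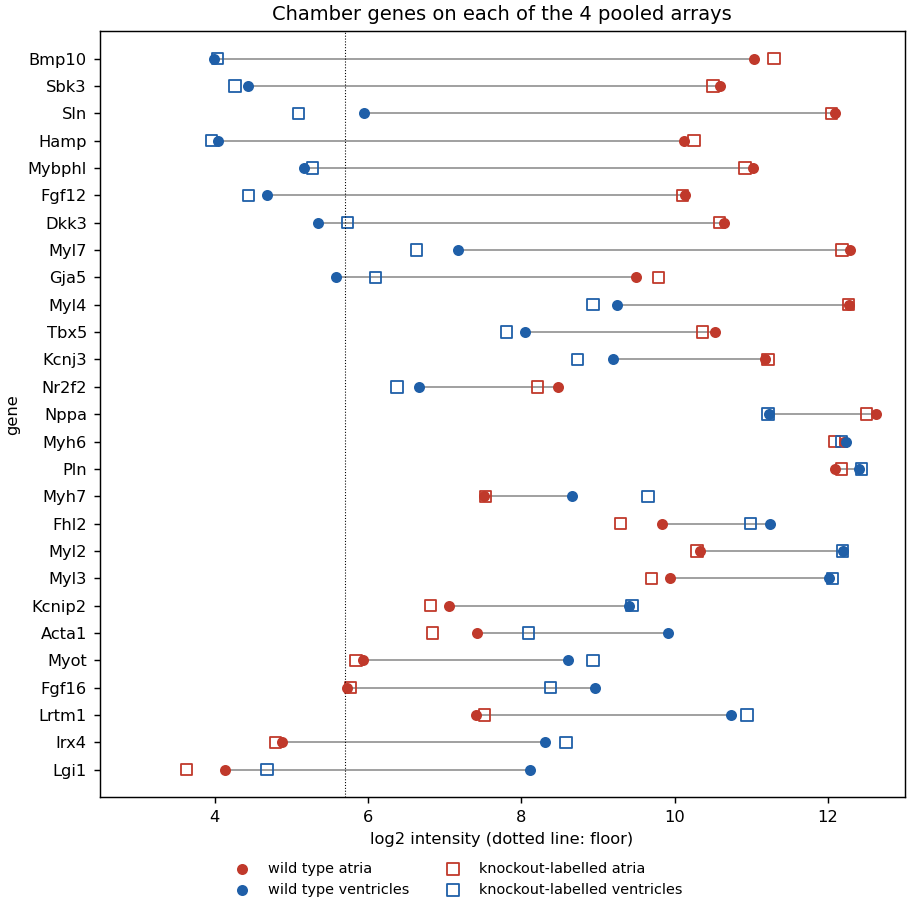
Log2 intensity (x axis) of 27 chamber genes on each pooled array, with wild type arrays as filled circles joined by a line, knockout-labelled arrays as open squares, atria in red and ventricles in blue; the dotted line is the floor at 5.71. Squares sit near the circles of the same chamber for most genes, as for Myl7 or Irx4, while the ventricular circle and square stand apart for Lgi1 and Acta1, and Myh6 and Pln show all 4 arrays close together.

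Sarcomere genes past 2-fold lay in both directions. In the thick filament list 5 of 17 genes were past 2-fold in each direction, the light chains and Mybphl among them. Myl9, a regulatory light chain of smooth muscle and non-muscle myosin, was at 11.07 in atria and 8.03 in ventricles, 8.20-fold. Myl1, an essential light chain of fast skeletal fibres, was higher in atria by 1.34. Toward ventricles lay Myh7b, a heavy chain gene whose intron carries a muscle microRNA, at −1.81, and Mybpc2, fast skeletal myosin-binding protein C, at −1.71. Mybpc3, the cardiac form, was within 2-fold at −0.80. In the thin filament list 2 of 24 genes were past 2-fold in atria and 3 in ventricles. Tpm2, which encodes beta tropomyosin, read 9.42 in atria and 6.48 in ventricles, 7.63-fold higher in atria. The knockout-labelled ventricles read 7.96, so that the difference there was 1.29. Acta1, skeletal alpha actin, read 7.42 and 9.92 in the wild type chambers, and 6.84 and 8.10 in the knockout-labelled chambers. It was thus 5.65-fold higher in wild type ventricles, with a smaller gap of −1.26 in the other pair. Lmod3, a leiomodin that nucleates thin filaments, was higher in ventricles at −1.30 and the tropomodulin gene Tmod4 at −1.0. The core genes were level, with Actc1 at −0.09, Tnnt2 at −0.13, Tnni3 at −0.06 and Tpm1 at −0.19.

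Genes of the Z-disc and M-band pointed to ventricles where they differed. Of 30 members 3 were past 2-fold in ventricles and 0 in atria. Myot, myotilin of the Z-disc, read 5.93 in atria and 8.61 in ventricles (6.38-fold). Ankrd23, a muscle ankyrin repeat protein that binds titin, read 8.85 and 11.23 (5.19-fold). Fhl2 was the other member past 2-fold. The knockout-labelled chambers read 5.84 and 8.94 for Myot and 8.78 and 11.27 for Ankrd23, close to wild type. Ttn (−0.06), Actn2 (−0.08) and Myoz2 (−0.06) were nearly equal. Among 27 intercalated disc and costamere genes, the desmosomal cadherin gene Dsc2 was higher in atria by 1.15. Cavin4, a coat protein of muscle caveolae, was higher in ventricles at −1.52, from 6.70 against 8.22. Genes typical of skeletal muscle fibres were split in wild type: of 7 above the floor, Myl1 and Tnnt3 (1.02) were past 2-fold in atria and Casq1 (−1.55) and Mybpc2 in ventricles. In the knockout-labelled pair this list gave 0 and 0, with Tnnt3 at 0.19. The defining genes Myh1, Myh2, Myh4, Myod1 and Myog were below the floor on both arrays.

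The calcium cycling list was near all genes above the floor in its shares past 2-fold. Its 31 members had a median of −0.18 (−0.31 with both arrays above the floor). Of them 2 (6.45%) were past 2-fold in atria and 1 (3.23%) in ventricles, beside 3.89% and 2.21% of all genes above the floor. In the knockout-labelled pair the list gave 2 and 0. Ryr3, the third ryanodine receptor, read 7.64 in atria and 4.13 in ventricles, 11.4-fold, and 7.80 and 4.06 in the knockout-labelled chambers. The cardiac receptor gene Ryr2 differed by −0.03 and the calcium pump gene Atp2a2 by 0.02. Casq1, the skeletal calsequestrin, was higher in ventricles at −1.55, while the cardiac form Casq2 was at −0.18. Calcium channel genes were past 2-fold in both directions, 4 of 11 in atria and 2 in ventricles, against 2 and 2 in the knockout-labelled pair. Cacna1c, the pore of the main cardiac L-type channel, read 9.43 in atria and 10.45 in ventricles (−1.02), and Cacna1d, the L-type pore of pacemaker cells, 6.50 and 5.02 (1.48). Cacna1c was thus the brighter of these pore genes in both chambers. Its difference fell just short of 2-fold after quantile normalization and under lowess centring. The accessory subunit gene Cacna2d1 was at −1.10, whereas Cacna2d2 (8.22 and 5.24) and Cacna2d3 (5.79 and 3.89) were higher in atria by 2.98 and 1.90. The ventricular values of the last 2 were below the floor.

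Potassium channel genes were past 2-fold in both directions, 4 of 26 on the list each way. In atria these were Kcnj3 and Kcnj5, the subunits of the channel opened by vagal acetylcholine, the ERG family gene Kcnh7 and Abcc8. Kcnj3 read 11.18 in atria and 9.20 in ventricles and Kcnj5 9.56 and 8.10, or 3.96-fold and 2.76-fold. The muscarinic receptor gene Chrm2, which acts on that channel, was at 0.73. Sulfonylurea receptors, the regulatory subunits of ATP-sensitive channels, were exchanged. Abcc8 read 8.97 in atria and 7.76 in ventricles, and Abcc9 8.43 and 10.40, so that the first was 2.31-fold higher in atria and the second 3.93-fold higher in ventricles. The pore gene Kcnj11 was level at −0.16. Kcne1, an accessory subunit of slow delayed rectifier channels, read 4.79 and 6.95, 4.46-fold higher in ventricles, and Kcna5 and Kcnip2 were the other 2 ventricular members of the list. Outside the list, the channel gene Kcnt2 read 7.86 in atria and 6.36 in ventricles, and the accessory subunit gene Kcnmb1 differed by −1.03. Of the sodium and pacemaker channel list, Fgf12, an intracellular homologue that modulates sodium channels, read 10.13 in atria and 4.68 in ventricles (43.7-fold). Fgf14, of the same kind, was at 1.20 and Fgf13 at −0.52. The pacemaker channel genes Hcn4 (5.79 and 6.93) and Hcn2 (5.61 and 7.05) were past 2-fold in ventricles, at −1.14 and −1.44. Of 5 connexins above the floor Gja5 alone was past 2-fold, and the main ventricular connexin gene Gja1 differed by −0.10.

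Of 18 genes known from the conduction system 8 were past 2-fold in atria and 2 in ventricles, Hcn4 and Irx3 (−1.07), and the list gave 8 and 0 in the knockout-labelled pair. The list as a whole had 10 positive and 8 negative differences, with a median of 0.28 that became −0.06 with both arrays above the floor, 0.12 with no floor and 1.77 with the floor at the 75th percentile. Cpne5, a copine, read 8.33 in atria and 4.89 in ventricles, and Vsnl1, a calcium sensor also found in the sinus node, 7.38 and 4.17. Etv1, the factor that sets fast conduction, was higher by 1.57, Id2 by 1.77 and Rgs6, which shuts off muscarinic signalling, by 1.23. The sinus node factor genes Shox2 and Isl1 were below the floor on both arrays, and Tbx3, which marks the nodes, was at −0.33.

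Endocrine and vasoactive genes were past 2-fold in atria for 7 of 26 and in ventricles for 3. Npr3, the clearance receptor for natriuretic peptides, read 9.89 in atria and 7.15 in ventricles (6.68-fold). The guanylyl cyclase receptor genes Npr1 (0.19) and Npr2 (0.23) were level and Nppb, brain natriuretic peptide, was at 0.69. Adm, the vasodilator peptide adrenomedullin, read 8.67 and 6.51, and the genes Ramp2 and Ramp3, whose products shape its receptor, differed by 0.65 and −0.99. Ramp1, which forms the receptor of calcitonin gene-related peptide, was higher in atria by 1.60. Glp1r, the receptor of the incretin hormone glucagon-like peptide, read 6.10 in atria and 4.05 in ventricles and 6.14 and 4.05 in the knockout-labelled chambers. Only the atrial arrays were above the floor for it. Ednrb, an endothelin receptor, was at 1.0. Toward ventricles lay the angiotensin receptor gene Agtr1a (7.63 and 9.09), Mme, the peptidase neprilysin that degrades natriuretic peptides (−1.36), and the apelin receptor gene Aplnr (−1.09).

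Of 13 prostaglandin genes 6 were past 2-fold in atria and 1 in ventricles. Their median was 0.61, against 0.18 with no floor and 0.36 with both arrays above it. Pla2g4a, the phospholipase that frees arachidonic acid, was at 1.46 and Ptgs2, the inducible cyclooxygenase, at 1.61. Ptgis makes prostacyclin and was at 1.08, and Hpgd and Slco2a1, which break down and take up prostaglandins, were at 1.18 and 1.07. The receptor gene Ptgfr read 7.79 in wild type atria and 4.93 in ventricles, and 5.77 in knockout-labelled atria. Ptgds, which makes prostaglandin D, read 8.69 in wild type atria and 10.57 in ventricles, the only member past 2-fold in ventricles, and 10.27 and 10.82 in the knockout-labelled chambers. Of 42 cyclic nucleotide and G protein genes 8 were past 2-fold in atria and 2 in ventricles, against 5 and 1 in the knockout-labelled pair. The wild type median of this list was 0.13, with 27 positive and 15 negative differences. Gnao1, the Go alpha subunit of inhibitory receptor signalling, read 10.50 and 7.91 (6.04-fold). The calcium-stimulated adenylyl cyclase gene Adcy1 was at 1.89 and Adcy9 at −1.20. Gucy1a1, a subunit of the nitric oxide receptor, was at 1.83 and Pde9a, a phosphodiesterase for cyclic GMP, at 1.27. The neuropeptide Y receptor gene Npy1r read 7.57 in wild type atria and 3.16 in ventricles, and 5.83 and 3.02 in the knockout-labelled chambers, so that the knockout-labelled atrial value was lower than the wild type one though still above the floor.

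Signalling by BMP and TGF-beta ligands had positive differences in 28 of 34 genes, with 6 past 2-fold in atria, 0 in ventricles and a median of 0.52. The ligands were Bmp10, Bmp5 (7.04 in atria and 4.62 in ventricles) and Tgfb3 (8.67 and 7.46). Receptors were closer, with Acvr1 at 0.74, Bmpr2 at 0.30, Acvrl1 at −0.32 and the coreceptor gene Eng at 0.70. The downstream inhibitor genes Smad6 and Smad7, which are switched on by the pathway, were higher in atria by 1.28 and 1.13, and the target gene Id2 by 1.77, with Id3 at 0.96 and Id1 at −0.13. The pathway's ligands, inhibitors and target thus each held members past 2-fold, while no receptor on the list was. In the knockout-labelled pair the list gave 7 and 0.

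Fibroblast growth factors were divided between the chambers. Fgf16, a secreted factor of heart muscle, read 5.72 in atria and 8.96 in ventricles (9.45-fold), and Fgf9, its close relative, 5.23 and 6.51. Fgf7, a factor released by mesenchymal cells, read 6.62 and 4.56, higher in atria by 2.06. Wnt pathway genes had 4 of 23 past 2-fold in atria and 1 in ventricles, with a median of 0.49 that was 0.17 with no floor and 0.25 with the floor at the 75th percentile. These were Dkk3, the frizzled-like inhibitor gene Sfrp5 (1.52), the R-spondin receptor gene Lgr6 (1.32) and the receptor gene Fzd7 (1.10). The inhibitor gene Wif1 was the ventricular member, at −1.66. Erbb4, the neuregulin receptor of heart muscle, read 9.85 in atria and 7.74 in ventricles (4.32-fold), with the ligand gene Nrg2 at 1.41. The Notch target genes were opposed, Hey1 at 1.12 and Hey2 at −0.97. Retinoic acid genes gave 2 of 13 past 2-fold each way, with the synthesising enzyme gene Aldh1a2 at 1.26 and the receptor gene Rxrg at −1.07.

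The insulin-like growth factor system, a list added after the values were seen, had 6 of 14 genes past 2-fold in atria and 0 in ventricles. Igf2 read 9.23 in atria and 7.29 in ventricles, and Igf1 7.64 and 6.58. The binding protein genes Igfbp5 (1.95), Igfbp4 (1.73), Igfbp6 (1.59) and Igfbp3 (1.25) made up the rest, and these proteins hold the ligands outside cells. The receptor genes Igf1r (0.62), Insr (−0.04) and Igf2r (−0.11) were within 2-fold. Igf2 is also imprinted, expressed from 1 parental copy, and of 23 imprinted genes above the floor, on another list added after the values were seen, 5 were past 2-fold in atria and 0 in ventricles. Besides Igf2 these were Peg3 (8.82 and 6.06), Plagl1 (8.68 and 6.17), Sgce (1.13) and Ndn (1.09). Others were level or opposite, such as Mest at 0.22, Dlk1 at 0.13 and Grb10 at −0.61.

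On a list of 37 cardiac and chamber transcription factors above the floor, 4 were past 2-fold in atria and 6 in ventricles. The atrial ones on the list were Tbx5, Nr2f2, its relative Nr2f1 (1.35) and Hey1. The ventricular ones were the iroquois genes Irx4, Irx5 (−1.12) and Irx3, the methyltransferase gene Smyd2, Lbh and Prdm16. Smyd2 read 6.28 in atria and 9.09 in ventricles, 7.00-fold, and 6.28 and 9.12 in the knockout-labelled chambers. Prdm16, a zinc finger regulator of compact ventricular muscle, read 5.48 and 7.15. Factors shared by all heart muscle were close, with Nkx2-5 at 0.17, Gata4 at −0.05, Srf at 0.07, Mef2c at −0.12, Mef2d at −0.28 and Tbx20 at 0.87. None of 7 MEF2 and class IIa histone deacetylase genes above the floor was past 2-fold, with Hdac9 at −0.32 the largest in size.

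Molecules that guide axons and hold cells apart were frequent on both sides, 10 of 38 past 2-fold in atria and 6 in ventricles. In the knockout-labelled pair the list gave 5 and 5. Its wild type median was −0.03, against −0.29 with both arrays above the floor and −0.47 with the floor at the 75th percentile. Slit3 read 8.93 in atria and 6.49 in ventricles, and Slit2 6.98 and 5.88. The ephrin receptor genes Epha3 (1.76), Epha4 (1.53) and Epha7 (1.01) were higher in atria, while the ephrin ligand genes Efnb3 (−2.09) and Efna5 (−1.07) were higher in ventricles. Receptor and ligand genes of this family thus lay on opposite sides in these members. The adhesion genes Opcml and Ntm, neighbours on chromosome 9, were at 2.10 and 1.45. Lrtm1, a leucine-rich repeat membrane protein, read 7.41 in atria and 10.73 in ventricles in wild type, and 7.52 and 10.94 in the knockout-labelled chambers. Lgi1, a secreted leucine-rich repeat protein of synapses, read 4.13 and 8.12, but 3.63 and 4.68 in the knockout-labelled chambers. Its wild type ventricular value was the only 1 of the 4 above the floor, so the widest ventricular difference of the wild type pair rests on that array. Subunits of glutamate, GABA and glycine receptors, a list added after the values were seen, were past 2-fold in atria for 6 of 8 above the floor, with 23 further members below it. In the knockout-labelled pair this list gave 3 and 0. Its wild type median of 1.498 depended on the floor, and was 0.576 with both arrays above it and −0.0334 with no floor. Gabra3 read 8.02 in atria and 6.06 in ventricles, and Grin2c 6.44 and 4.72. Slc17a7, which loads glutamate into vesicles, read 8.64 and 5.67. Of 25 neuron markers 22 were below the floor, among them Th, Dbh, Chat and Snap25, and 0 of the remaining 3 were past 2-fold.

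Iron genes other than Hamp were few past 2-fold. The neighbouring copy Hamp2 was at 1.72, and signal of near-identical copies can be shared on an array, so its value is uncertain. Slc39a8, a metal importer, read 7.47 in atria and 4.49 in ventricles. The exporter gene Slc40a1, on which hepcidin acts, was level at 0.22, and the transferrin receptor gene Tfrc was at −0.93. No iron gene was past 2-fold in ventricles.

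Energy metabolism genes were lower in atria across most of the genes listed, by less than 2-fold for the majority. Of 37 genes of fatty acid uptake and oxidation 36 had negative differences, 9 were past 2-fold in ventricles and 0 in atria, and the median was −0.74. The steps past 2-fold ran through the pathway. The carnitine shuttle genes Cpt2 (9.21 in atria and 10.32 in ventricles) and Slc25a20 (8.19 and 9.30) were among them. So were the dehydrogenase genes Acadvl (−1.11) and Acads (−1.10) and the isomerase genes Eci1 (−1.14) and Ech1 (−1.26). Uptake and storage genes had Cd36 at −0.76, Fabp3 at −0.85 and Lpl at −0.59. The lipid droplet gene Plin5, which ties droplets to mitochondria, read 6.05 and 7.59. Triglyceride synthesis, on a list added after the values were seen, had 4 of 26 past 2-fold in ventricles and 0 in atria, with Dgat2, which makes the final bond, at 8.16 and 10.06 and Gpam, which makes the first, at 8.02 and 9.37. The exception in the fatty acid list was Cpt1a, the liver form of the carnitine transferase, at 0.16, while the muscle form Cpt1b was at −0.45.

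Ketone use and branched chain amino acid breakdown had 6 of 22 genes past 2-fold in ventricles and 0 in atria. Bdh1 and Oxct1 catalyse successive steps of ketone use. Bdh1 read 5.13 in wild type atria and 8.18 in ventricles (8.29-fold) and 5.58 and 9.01 in the knockout-labelled chambers, and Oxct1 read 9.52 and 10.72 in wild type. Of the pair only Bdh1 was below the floor in atria. For branched chain amino acids, Bcat2 (−1.15), Bckdha (−1.05), Hibch (−1.20) and Auh (−1.01) were past 2-fold. Citrate cycle genes were negative in 27 of 28, with a median of −0.54. Ogdhl, an isoform of the oxoglutarate dehydrogenase subunit, read 5.06 and 6.97 and Sucla2, a succinyl-CoA ligase subunit, 9.47 and 10.74. Glycolysis and glycogen genes had a smaller median of −0.30 over 27, with Hk2, the insulin-responsive hexokinase, at −1.20. Phkg1, the catalytic subunit of muscle phosphorylase kinase, was the only metabolic gene of these lists past 2-fold in atria apart from the nuclear receptor gene Nr4a1, at 8.62 and 6.79. Regulators of oxidative metabolism had Perm1 at −1.39, Rxrg at −1.07, Esrrb at −0.94, Ppara at −0.64 and Ppargc1a at −0.19. The phosphocreatine and adenylate genes had 2 of 12 past 2-fold in ventricles, the creatine transporter gene Slc6a8 (−1.08) and the adenylate kinase gene Ak4 (−1.32).

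**Figure D3:**
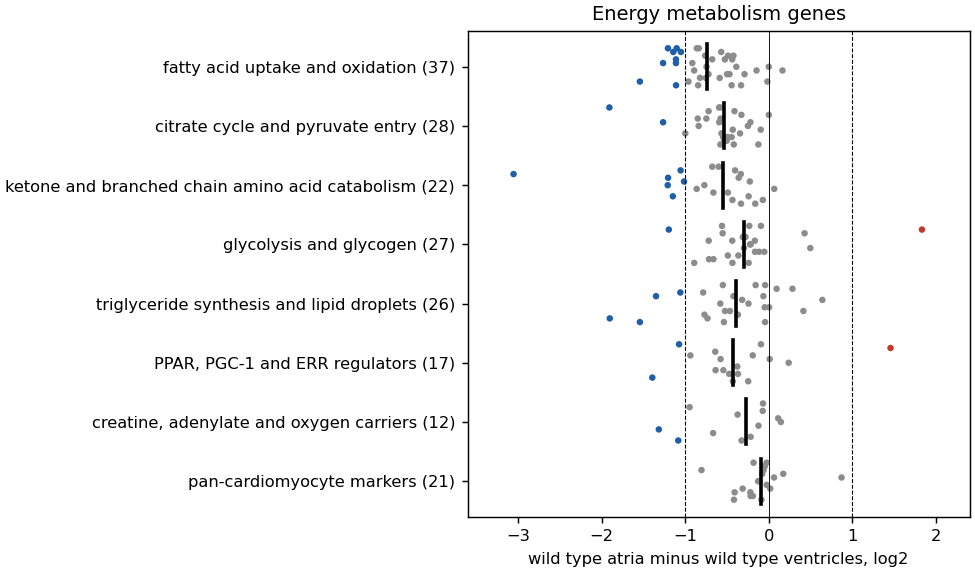
Wild type atria minus wild type ventricles (log2, x axis) for each gene above the floor in 7 metabolic lists and in a list of general cardiomyocyte markers, with the number of genes in brackets. Each point is 1 gene, blue or red when at least 2-fold higher in ventricles or atria, and the black bar is the list median; the fatty acid median is −0.74 and that of the cardiomyocyte markers −0.09.

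The small shift extended to the mitochondrial machinery. Complex I subunit genes were negative in 35 of 37, with a median of −0.33. Of them 1 was past 2-fold in ventricles, 2.70%, near the 2.21% of all genes above the floor. ATP synthase subunits were negative in 14 of 14 with a median of −0.24, and complex III subunits in 7 of 7 with −0.26. Complex IV subunits leaned less, with 11 of 14 negative, 3 positive, a median of −0.15 and 0 past 2-fold. Mitochondrial ribosomal protein genes had a median of −0.52 over 75, with 70 negative and 4 past 2-fold in ventricles. The exception was Mrps6, past 2-fold in atria at 9.78 and 8.11 beside its neighbour Slc5a3, a carrier of inositol, at 8.02 and 5.98, and the array may not tell transcripts of these neighbours apart. Cytosolic ribosomal protein genes did not share the shift, with a median of 0.10 over 31. Their only member past 2-fold was Rpl3l, the striated muscle copy of a large subunit protein, at 5.72 in atria and 8.71 in ventricles. Proteasome subunits were negative in 38 of 44, with a median of −0.22. The sizes of these family medians were below 2-fold, and their signs were the same in the knockout-labelled pair except for the cytosolic ribosomal proteins, at −0.03. Beside them, 21 general cardiomyocyte markers, a list added after the values were seen, had a median of −0.09 with 17 negative and 0 past 2-fold.

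Marker lists of other cell types leaned to atria for epicardium, endocardium and fibroblasts. They leaned to ventricles for general endothelium and for smooth muscle and pericytes. Of 18 epicardial and mesothelial markers above the floor 12 were past 2-fold in atria, 0 in ventricles and 18 of 18 were positive, with a median of 1.25. The mean level of the 22 measured markers was 6.71 in atria and 5.47 in ventricles. The surface protein genes Upk3b (8.79 in atria and 6.10 in ventricles), Upk1b (7.16 and 4.31) and Msln (7.4 and 5.58) define the mesothelial lining. Gpm6a read 8.90 and 5.92, whereas the epicardial transcription factor genes Wt1 (0.44) and Tbx18 (0.44) were within 2-fold. Bnc1, Bnc2, Cfb and Slpi were below the floor on both arrays. Endocardial and valve markers had 8 of 14 past 2-fold in atria, 0 in ventricles and a median of 1.60, which was 0.57 with both arrays above the floor, and had means over 15 measured markers of 7.84 and 6.66. Besides Npr3, Plvap, a protein of endothelial fenestrae, read 8.55 in atria and 5.92 in ventricles, Vwf 9.17 and 7.44 and Cytl1, a secreted protein of cartilage and valves, 9.68 and 7.62. Nfatc1, the valve transcription factor, was at 0.15. General endothelial markers leaned the other way. Of 22 none was past 2-fold in atria and Rgcc alone in ventricles (−1.10), with a median of −0.38 and means of 8.22 and 8.47. Pecam1 was at 0.42, Cdh5 at −0.32, Kdr at −0.70 and the capillary lipase anchor gene Gpihbp1 at −0.73.

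Fibroblast markers were positive in 17 of 19, with 4 past 2-fold in atria, 0 in ventricles, a median of 0.57 and means of 8.64 and 8.04. These were Fbln1 (10.38 and 8.69), Tcf21 (7.84 and 6.33), Dpt (11.01 and 9.74) and Pdgfra (9.01 and 8.0). Smooth muscle and pericyte markers past 2-fold lay on both sides, with 13 of 17 above the floor negative and a median of −0.41. Cnn1, calponin of smooth muscle, read 7.88 in atria and 5.40 in ventricles, while Acta2, smooth muscle alpha actin, read 9.28 and 10.56 and the pericyte genes Rgs5 and Vtn were at −1.16 and −1.19. The defining contractile genes Myh11 (−0.21) and Tagln (−0.05) were level, and the list had 1 of 17 past 2-fold in atria and 4 in ventricles, with means over 19 measured markers of 7.83 and 8.19. Macrophage markers had a median of 0.16 over 19 (0.06 with no floor), with Retnla alone past 2-fold (1.05) and means over 25 measured markers of 6.66 and 6.54. Schwann cell markers were positive in 6 of 6 above the floor, with 0 past 2-fold, means over 13 measured of 5.53 and 5.33, and Sox10 and S100b below the floor.

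Lymphoid, granulocyte and lung markers were mostly below the floor, while 8 of 11 red cell and platelet markers and 7 of 14 white fat cell markers were above it. Of 21 T and B lymphocyte and thymus markers only Cxcl13, the chemokine that draws B cells, was above it, at 8.80 in atria and 3.95 in ventricles. Cd3e, Cd79a and Ms4a1 were below it. All 17 granulocyte and mast cell markers were below it, as were 12 of 13 lung and airway markers, Sftpc included. Mlana, known from melanocytes, read 9.79 in atria and 5.68 in ventricles, while Tyr, Tyrp1, Dct and Pmel of the same list were below the floor on both arrays. The platelet chemokine gene Ppbp read 8.69 and 6.17 in wild type, and 6.57 and 6.14 in the knockout-labelled chambers. Of the fat cell list, Scd1 (1.85), Cyp2e1 (1.85) and Car3 (1.84) were past 2-fold in atria and Thrsp (−1.11) in ventricles. Adipoq, Plin1 and Lep were below the floor, and the list's 14 measured genes had means of 6.10 and 5.76. The part of the epicardial, endocardial, fibroblast and other cell type markers in the matrix, growth factor, retinoid and prostaglandin results was not tested.

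**Figure D4:**
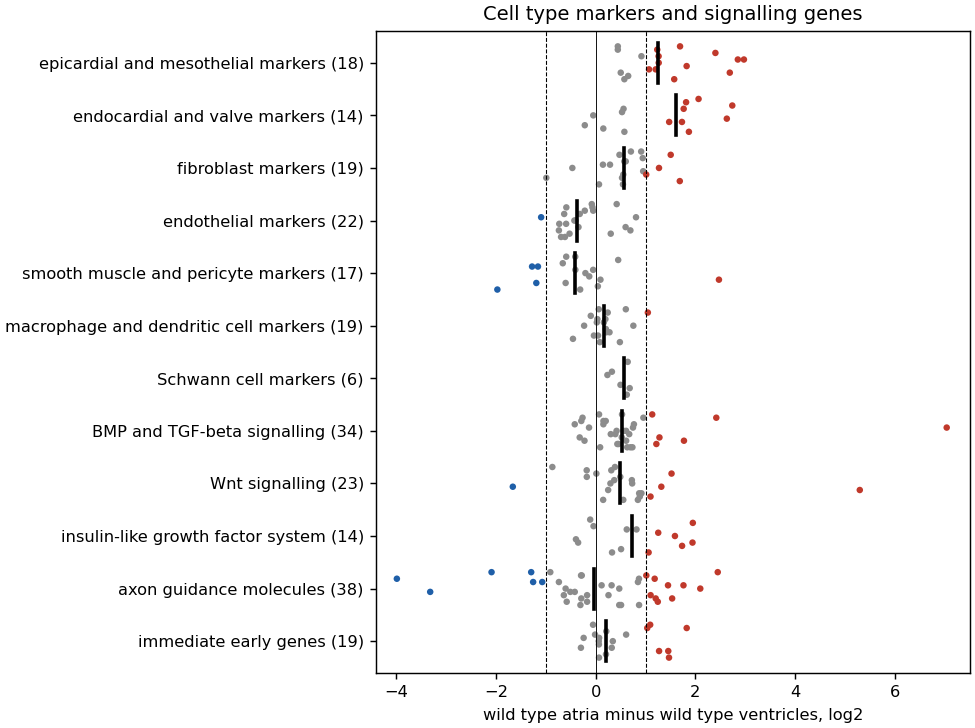
Wild type atria minus wild type ventricles (log2, x axis) for each gene above the floor in 7 cell type marker lists and 5 signalling or response lists, with the number of genes in brackets. Each point is 1 gene, red or blue when at least 2-fold higher in atria or ventricles, and the black bar is the list median; all 18 epicardial points lie right of 0, and axon guidance genes spread to both sides.

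Matrix genes were higher in atria through glycoproteins more than collagens. Of 46 matrix and matricellular genes 10 were past 2-fold in atria and 0 in ventricles, with a median of 0.49. Mfap4, a protein of elastic fibres, was higher in atria by 2.03, and Eln, elastin itself, read 8.17 and 6.81. Smoc1 (1.98), Efemp1 (1.69), Ccn2 (1.41), Mgp (1.11) and Mmp2 (1.01) were also past 2-fold. Of 22 collagen genes only Col14a1 was, at 1.42, and Col1a1 was at 0.55 and Col4a1 at −0.39. Podn, a small leucine-rich proteoglycan, read 10.65 in atria and 6.88 in ventricles (13.7-fold). Complement and coagulation genes had 5 of 20 past 2-fold in atria and 0 in ventricles, among them C7 (1.51) and C4b (1.01). On the interferon response list 3 of 24 genes were past 2-fold in ventricles and 0 in atria. These were the GTPase genes Gbp6 (5.19 in atria and 8.16 in ventricles) and Iigp1 (4.79 and 7.31) and Rsad2 (−1.20), and the list median was −0.22, against −0.06 with both arrays above the floor and −1.29 with the floor at the 75th percentile. Other inducible genes such as Ifit1 (−0.20), Irf7 (−0.47) and Stat2 (0.00) were within 2-fold. The interferon induced symbol family (Ifi) leaned to atria, with 12 of 15 genes above the floor positive, a median of 0.34 and 0 past 2-fold. In the knockout-labelled pair its median was 0.04.

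Genes that respond to handling and time were read as a check on how the tissue was taken. Of 19 immediate early genes, which are switched on within minutes of stress, 6 were past 2-fold in atria and 0 in ventricles. Fos read 6.14 in atria and 4.87 in ventricles, Atf3 7.81 and 6.34, Egr1 8.51 and 7.42, and Nr4a3 6.62 and 4.79. Jun (0.21), Junb (0.06) and Klf2 (−0.01) were level. In the knockout-labelled pair the list gave 3 and 0. Circadian clock genes were positive in 14 of 16, with a median of 0.23 and 0 past 2-fold, Hlf at 0.84 and Nfil3 at −0.86 being the largest in size. Of 20 heat shock genes Hspa1a was past 2-fold, at 1.06. The sources used here do not give the time that dissection of each chamber took, and the part of handling in the atrial differences was not tested. Among 10 housekeeping genes 0 were past 2-fold, with Actb at 0.08, Rplp0 at −0.01 and Tfrc at −0.93. Xist, expressed in females, stood at 9.97 in atria and 9.35 in ventricles and the Y-linked gene Uty at 7.19 and 7.15, so both pools carried RNA of both sexes.

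Some genes were bright in 1 chamber and below the floor in the other. Counting genes that reached the 75th percentile of all values, 7.27, on 1 wild type array and lay below 5.71 on the other, 44 were restricted in this sense to atria, 0.439% of the genes above the floor, and 12 to ventricles, 0.12%. Of these 30 and 5 met the same criterion in the knockout-labelled pair. Beside the genes named so far, the atrial ones included Sphkap, an anchor of protein kinase A (7.87 and 3.97), Slc7a7, an amino acid exchanger (8.90 and 5.07), and Tmem163, a zinc transporter (9.21 and 5.38). Ahsg, the plasma protein fetuin-A (8.33 and 4.95), Camk1d (8.36 and 5.23) and Vsig4, a complement receptor of macrophages (8.62 and 5.45), were also among them. The ventricular ones included Irx4, Bdh1 and Gbp6, the orphan receptor gene Gpr22 (5.59 in atria and 8.05 in ventricles) and Cecr2, a chromatin remodelling subunit (5.64 and 7.45). B3galt2, a glycosyltransferase, read 4.05 and 7.4 in wild type, and Cyfip2, a regulator of actin assembly, 5.19 and 7.77. The knockout-labelled ventricles read 4.93 and 6.43 for these 2, lower than the wild type ventricles in each case. All 40 genes with the widest atrial differences were past 2-fold in atria in the knockout-labelled pair too, and 35 of the 40 with the widest ventricular differences were past it in ventricles. Directly between genotype labels within a chamber, which shares arrays with the pairs above, 65 of 10050 genes (0.647%) were past 2-fold in atria and 36 of 9712 (0.371%) in ventricles, so differences between chambers were more frequent than differences between labels within a chamber.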

How the data were processed

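The table holds log2 intensities that the authors made with RMA in the affy package, per the submitters' processing notes. The sources used here give no versions and no array design, and scanner files were not used here. RMA corrects background, scales the arrays and summarises probes, and it compresses differences near background. Probe sets were named through the platform annotation and RefSeq (GRCm38.p6): 18786 had 1 symbol, 6 several and 2420 no entry, of which 18775 were updated through the gene number, 6 through the accession and 5 left as they were. Where several probe sets shared a symbol, the brightest over the 4 arrays stood for the gene.

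Each difference is wild type atria minus wild type ventricles, and a gene was counted past 2-fold when it differed by at least 1 log2 unit and the brighter array reached the floor, 5.71. With 1 array per group no model was fitted, and the number of arrays limits the precision. The members and the 65 gene lists were chosen with earlier results of these data known, and 5 of the lists were added after the values were seen. Lists are described by counts and medians, beside all genes above the floor. The genes named were drawn from the 40 widest differences in each direction with 1 symbol, and not all of these appear in the text. Predicted genes, small RNAs, receptor segments of lymphocytes and the olfactory and pheromone receptors were left out. Further sources were up to 10 members past 2-fold per list and direction, or the 2 widest where none passed, defining cell type markers and paired isoforms. Up to 15 chamber-restricted genes per direction, up to 6 members per symbol family, the MEF2 and sex-linked lists and up to 15 neighbouring pairs were also drawn on. Other list members given as values were chosen after the values were seen.

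Promoters are the 250 bases upstream of the first start listed per gene in RefSeq, and exact motif matches were sought on both strands. The alternatives were the floor, the scaling of arrays, the fold and the unnamed probe sets. The counting was tested on simulated data. Python 3.11.15, numpy 2.4.6, pandas 2.3.3, statsmodels 0.14.6 (lowess, span 0.3) and matplotlib 3.10.9 were used.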

Additional observations from a re-analysis of the deposited data

Results flagged for a closer look

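Of the genes past 2-fold between the wild type chambers, 4 had a difference of the opposite sign between the knockout-labelled chambers, and the difference between the pairs was not tested. Car3, carbonic anhydrase of muscle and fat, was higher in atria by 1.84 in wild type (7.58 against 5.74) and at −0.99 in the knockout-labelled pair (5.50 against 6.48). Nrgn, the calmodulin-binding protein neurogranin, was at 1.35 in wild type (7.09 against 5.74) and −0.07 in the other pair (5.79 against 5.86). Scgb1c1, a secretoglobin, was at −1.86 in wild type (6.94 against 8.79) and 0.05 in the other pair (8.60 against 8.55). For Scgb1c1 the 2 ventricular arrays were alike and the atrial arrays differed, whereas for Car3 both chambers differed between the labels. The other gene was the predicted gene Gm10334, at −1.11 in wild type and 0.33 in the other pair. The naming rule leaves it out, and it was named after its values were seen.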

How the results depend on the processing

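Under no floor, median centring, quantile normalization, lowess centring and with unnamed probe sets included, the counts of 390 and 222 stayed between 362 and 427 in atria and between 211 and 246 in ventricles. Atrial genes numbered 253 with the floor at the 75th percentile, 229 with both arrays above the floor, 847 at 1.5-fold and 92 at 4-fold, and ventricular genes 153 and 161 under the same floors, 785 at 1.5-fold and 28 at 4-fold. The share of genes past the fold that were higher in atria was 63.7%, against 58.7% with both arrays above the floor, 51.9% at 1.5-fold and 76.7% at 4-fold. The scalings moved the median of all genes by −0.03 to 0.03. Of 273 genes examined under the 3 scalings, none past 2-fold changed sign. Of the same 273, 9 crossed 2-fold with each array centred on its median, 7 after quantile normalization and 3 under lowess centring. C4b, Ednrb, Epha7, Auh and Cacna1c were among these, each under at least 1 of the scalings. List medians that changed sign were, with no floor, connexins (0.0487), retinoic acid (0.087), lymphatic (−0.28), lymphocyte (−0.0881), neuron (0.0011), skeletal muscle (−0.0231), cartilage (−0.0174), MEF2 and histone deacetylase (0.0077) and transmitter receptor genes (−0.0334). With the floor at the 75th percentile they were thick filament (0.22), sodium and pacemaker channel (0.88), connexin (0.36), autonomic receptor (0.23), erythroid and platelet (−0.0323), melanocyte (1.8), skeletal muscle (−1.55), chemokine (0.105) and sex-linked genes (0.22). With both arrays above the floor they were conduction system (−0.0596), white adipocyte (−0.32), skeletal muscle (−0.10) and sex-linked genes (0.0399), and under lowess centring thick filament genes (0.0903). Other floors test other genes of a list. No paired analysis was possible because each group had 1 array and the labels give no replicate numbers. With 1 pooled array a side, the variation between mice cannot be estimated, and differences whose dimmer value lies near background are the least certain in size.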

Other observations

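Several gene families grouped by symbol held members past 2-fold on 1 side, beside 3.89% of all genes above the floor in atria and 2.21% in ventricles. Some of these members, such as Slc25a20 and Aldh1a2, were also counted in the lists. Of 14 genes of the ankyrin repeat and SOCS box family (Asb), substrate adaptors of ubiquitin ligases, 4 were past 2-fold in ventricles and 0 in atria. Asb5 read 6.03 in wild type atria and 7.94 in ventricles and 5.39 and 7.73 in the knockout-labelled chambers. Mitochondrial carriers (Slc25) had 4 of 35 past 2-fold in ventricles and 0 in atria, with Slc25a34 at 6.12 and 8.40, Slc25a13, the aspartate and glutamate carrier, at 7.77 and 9.09, and Slc25a42 at 6.84 and 7.93. Aldehyde dehydrogenases had 4 of 15 past 2-fold in atria and 0 in ventricles, Aldh3b3 among them at 8.51 and 5.64. Of 192 zinc finger genes of the Zfp series 3 were past 2-fold in atria, 1.56% and so under the share of all genes, and 0 in ventricles. Of 13 olfactory receptor genes above the floor 2 were past 2-fold in ventricles, Olfr872 (−3.55) and its neighbour Olfr39 (−2.62), named here after their values were seen. The other 1055 measured olfactory receptor genes were below the floor.

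Genes past 2-fold lay next to each other along chromosomes, taking each gene above the floor and the next. Of 388 atrial genes with a next gene 31, or 7.99%, were followed by another atrial gene, beside 3.89% of all genes, and of 222 ventricular genes 13, or 5.86%, by another ventricular gene, beside 2.21%. No test was made of these shares, and neighbours can be copies or overlap. On chromosome 7 Sbk2, Sbk3 and Zfp579 (2.15) followed each other, and on chromosome 1 Rgs2 (1.07), Pla2g4a (1.46) and Ptgs2 (1.61). On chromosome 9 Igsf9b (1.20), Opcml (2.10) and Ntm (1.45) did, with Adamts15 (1.07) and Adamts8 (1.88) as a pair of matrix protease genes. Sort1 (2.00) lay beside Mybphl on chromosome 3, Antxr1 (1.46) beside Bmp10 on chromosome 6, and Irx3 (−1.07) beside Irx5 (−1.12) on chromosome 8.

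Promoters of the chamber genes were lower in CpG content than those of other genes above the floor. A ratio of observed to expected CpG of at least 0.6 over the 250 bases upstream was found in 44.3% of 282 atrial and 44.4% of 180 ventricular promoters, 69.6% of 8129 promoters of genes above the floor and 49.3% of all 15062. The median GC content was 58.8%, 58.0%, 60.4% and 56.4% in the same sets, and the median length of the gene locus 33.9, 23.2, 24.9 and 18.7 kb. No test was made of these shares. Of 2426 probe sets without exactly 1 symbol, 1026 were above the floor, of which 21 were past 2-fold in atria and 24 in ventricles.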
